A study of Homo sapiens with 6 samples.

Results

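The 40 genes described here code for nuclear-encoded subunits and assembly factors of respiratory complex I. They were taken by gene symbol from a table of 63241 genes, with the condition of a mean of at least 1 TPM over 6 RNA-seq libraries. TPM is the share of a gene's transcripts among all transcripts of a library, after division by transcript length and scaling to 1000000. All 40 met the condition, and none lay near it: the lowest mean level was 14.7 TPM (NDUFV3) and the highest 596 TPM (NDUFA13), with a median of 100.3 TPM. The list holds 6 core subunits, 9 accessory subunits of the matrix arm, 20 accessory subunits of the membrane arm, the acyl carrier protein NDUFAB1, and 4 assembly factors. The cells were of the line MDA-MB-231, which derives from a human breast carcinoma without hormone receptors and is mesenchymal in character. Of the 6 libraries, 3 came from cells that had 40 µM of ArA (arachidonic acid in the study's title, a polyunsaturated fatty acid) for 24 h. The other 3 came from control cells that had none. No genetic change is named in the labels, and no vehicle is named for the controls. The labels do not say whether replicates were separate cultures, so the p-values reflect library-to-library spread alone, possibly only technical.

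Complex I takes electrons from NADH in the mitochondrial matrix, passes them along a chain of flavin and iron-sulfur centres to ubiquinone, and pumps protons across the inner membrane. It is L-shaped, with a matrix arm that holds the redox centres and a membrane arm that holds the pumps. The core subunits of the membrane arm, ND1 to ND6 and ND4L, are encoded in mitochondrial DNA and all others in the nucleus, so that the complex is put together from the products of both genomes. Accessory subunits surround the core, and assembly factors join the parts and then leave.

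The marker genes fitted the labelled line: VIM, CD44, CAV1, AXL, EGFR and MSN all had at least 57.1 TPM in every library, while the luminal genes ESR1 and PGR and the E-cadherin gene CDH1 had at most 0.17 TPM. GATA3, FOXA1 and EPCAM, also luminal or epithelial genes, lay between 2.88 and 6.92 TPM. Blood, fibroblast and muscle markers (PTPRC, CD3E, HBB, DCN, COL1A2, MYH1, MYH2, ACTA1 and CKM) had at most 0.20 TPM, whereas CD68 had 185 to 267 TPM, PDGFRB 3.50 to 5.97 TPM, and LUM and DES up to 1.16 and 1.42 TPM. In these bulk libraries, fewer cells of a kind and less RNA per cell cannot be told apart. Depth per library is unknown, since TPM keeps no read totals. Mitochondrially encoded transcripts took 31.6 to 32.9% of all TPM in the control libraries and 32.1, 28.0 and 26.9% in ArA replicates 1, 2 and 3, and because TPM are shares, a smaller mitochondrial share goes with higher values for all other genes.

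Control replicate 2 and ArA replicate 1 stood apart from the other 4 libraries in the way complex I genes ranked by base composition. In control replicate 2 and ArA replicate 1, genes with GC-rich coding sequences had the higher levels relative to their own mean over the 6 libraries, with Spearman correlations of 0.70 and 0.68 between coding GC content and the deviation on the log2(TPM + 1) scale. The same correlation was -0.75, -0.18, -0.41 and -0.65 in control replicates 1 and 3 and ArA replicates 2 and 3. These are correlations across the 40 genes of a library, which share its depth and preparation and are not independent replicates. The pattern was not particular to complex I: over 12637 tested genes with a transcript in the annotation, the correlation with transcript GC content was 0.64 and 0.56 in control replicate 2 and ArA replicate 1, and -0.59, -0.39, -0.22 and -0.48 in the other 4. NDUFA5, a small matrix arm subunit, showed it most, with 20.96, 9.85 and 22.32 TPM in control replicates 1 to 3 and 11.39, 20.69 and 23.31 TPM in ArA replicates 1 to 3. NDUFS7, at the other end of the GC range, had its highest value of 69.33 TPM in ArA replicate 1.

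The contrast in composition is shown by the last 120 coding bases, stop codon included, of the 2 genes with the lowest and the 2 with the highest coding GC content (GENCODE v29 transcripts on hg38, sense strand, 5′ to 3′), with each G and C in capitals and all A and T in lower case. NDUFAF4 lies on the reverse strand at chr6:96889313-96897881, NDUFA5 on the reverse strand at chr7:123536997-123558255, NDUFB7 on the reverse strand at chr19:14566078-14572062 and NDUFS7 on the forward strand at chr19:1383527-1395589. The whole coding sequences of NDUFAF4 and NDUFA5 held 40.9 and 42.2% GC, and those of NDUFB7 and NDUFS7 held 65.7 and 66.0%. In the bases shown, 38, 53, 78 and 77 of 120 were G or C.
NDUFAF4: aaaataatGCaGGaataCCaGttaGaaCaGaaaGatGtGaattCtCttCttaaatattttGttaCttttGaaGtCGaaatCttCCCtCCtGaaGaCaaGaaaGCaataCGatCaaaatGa
NDUFA5: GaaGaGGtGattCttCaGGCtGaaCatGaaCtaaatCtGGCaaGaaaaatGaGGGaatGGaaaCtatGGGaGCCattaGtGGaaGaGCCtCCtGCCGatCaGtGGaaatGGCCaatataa
NDUFB7: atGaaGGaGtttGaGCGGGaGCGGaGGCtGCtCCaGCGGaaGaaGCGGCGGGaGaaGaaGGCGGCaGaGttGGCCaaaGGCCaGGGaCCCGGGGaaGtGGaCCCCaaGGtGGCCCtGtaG
NDUFS7: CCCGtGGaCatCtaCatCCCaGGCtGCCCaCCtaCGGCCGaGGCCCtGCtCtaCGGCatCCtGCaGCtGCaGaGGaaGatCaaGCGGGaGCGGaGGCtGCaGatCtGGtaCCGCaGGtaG

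**Figure D1:**
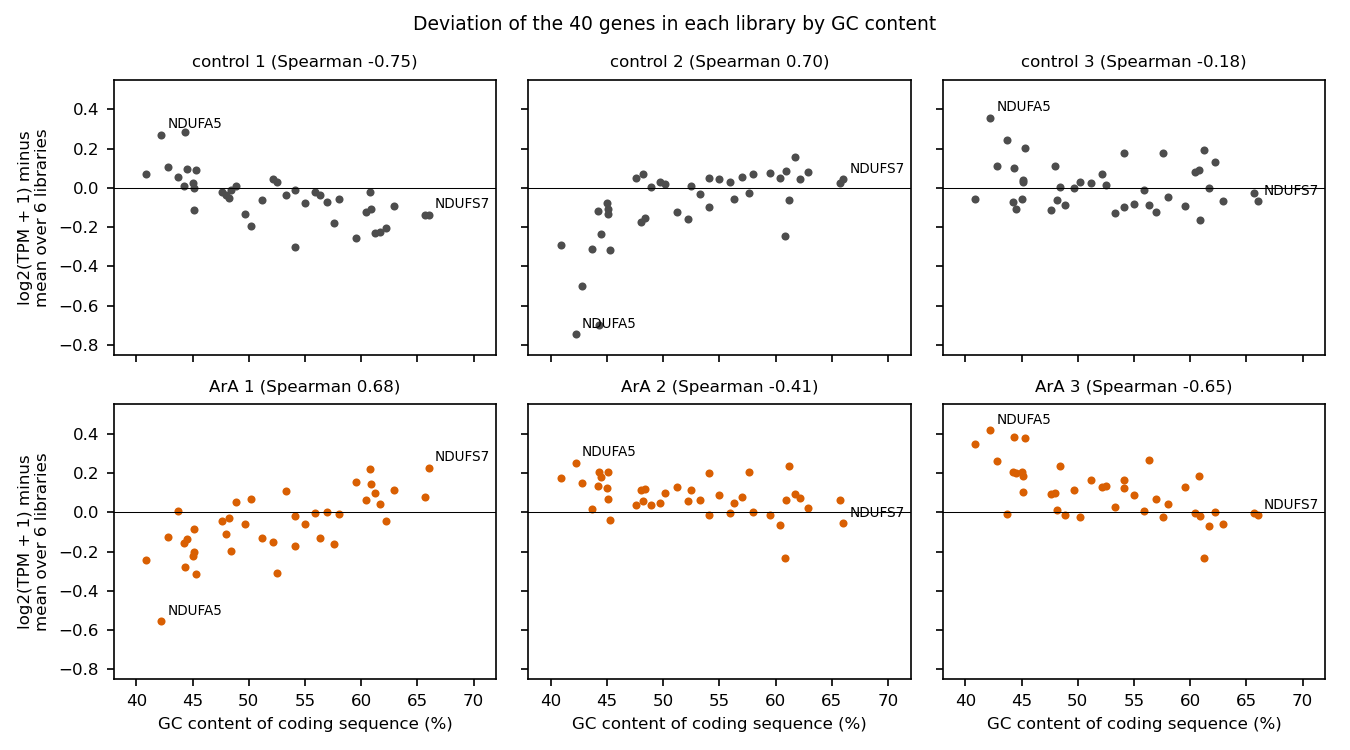
Each panel is 1 library and each point 1 of the 40 genes, with the GC content of its coding sequence in percent on the x axis and its log2(TPM + 1) value minus its mean over the 6 libraries on the y axis; the title of each panel gives the Spearman correlation. Points slope upward in control 2 (0.70) and ArA 1 (0.68) and downward in the other 4 panels, least in control 3 (-0.18), with NDUFA5 far below 0 in the former 2.

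No nuclear-encoded complex I gene passed the test between ArA-treated and control cells. Of the 40 genes, 0 had an adjusted p under 0.05 in limma, where 0.0231% of 12999 tested genes did, and 0 had an unadjusted p under 0.05, where 2.78% did. The log2 fold changes ran from -0.04 to 0.23 with a median of 0.07, and 37 of 40 (92.5%) were positive. Over all tested genes the median was 0.06 and 68.9% were positive. Only NDUFB9 had all 3 ArA values above all 3 control values, or 2.5% of the 40 against 6.84% of all tested genes, and 0 of the 40 had all 3 below, against 1.21%. The 95% intervals of 35 of the 40 genes lay inside -0.5 to 0.5 on the log2 scale. The 5 exceptions were NDUFA5, NDUFS4, NDUFB3, NDUFV3 and NDUFAF4, and the widest interval, that of NDUFA5, ran from -0.77 to 0.93.

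The excess of positive signs depended on how the libraries were scaled. With TPM rescaled without mitochondrially encoded genes, 24 of 40 (60.0%) were positive, against 49.3% of all tested genes, and the median was 0.01. Quantile normalization gave 18 of 40 (45.0%), against 51.7% of all tested genes, and median-of-ratios scaling 25 of 40 (62.5%), against 51.0%. With both control replicate 2 and ArA replicate 1 left out, a comparison chosen after seeing the data, 25 of 40 genes had ArA values all above the control values (62.5%, against 32.8% of all tested genes), 7 had an unadjusted p under 0.05 (9.65% of all tested genes did), and the smallest limma adjusted p was 0.505. Without control replicate 2 alone 12 of 40 were higher in this sense (16.8% of all tested genes), and without ArA replicate 1 alone 16 of 40 (21.3% of all tested genes).

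**Figure D2:**
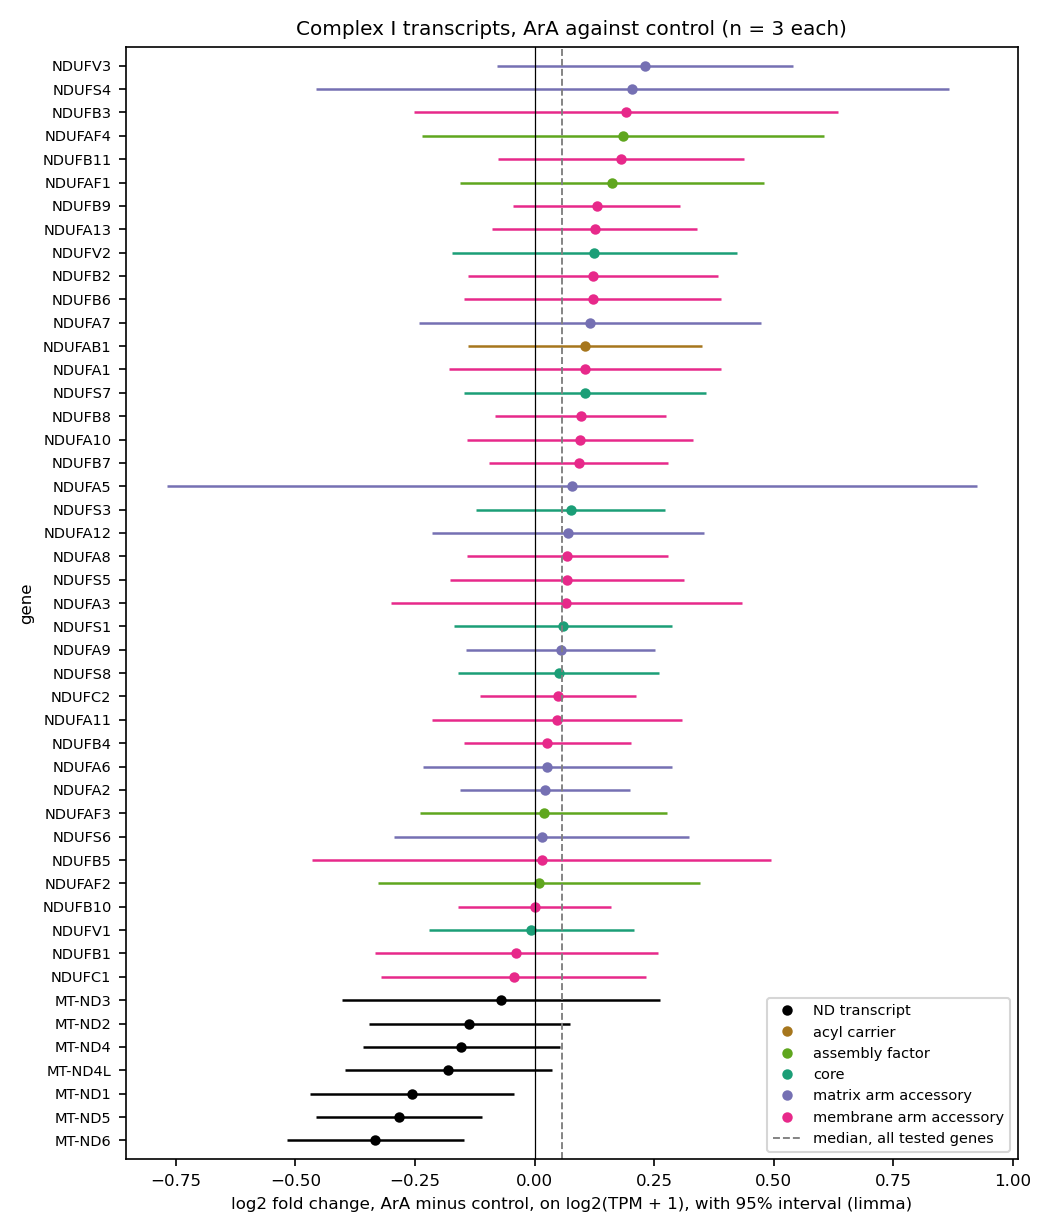
Points give the log2 fold change (ArA minus control, on the log2(TPM + 1) scale) of each of the 40 nuclear genes and 7 ND transcripts, and bars the 95% interval from limma; colours mark roles, and the dashed line is the median of all tested genes (0.06). All 40 nuclear bars cross 0, while those of MT-ND1, MT-ND5 and MT-ND6 lie below it.

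The summed level of the 40 genes also differed by scale. As deposited it was 5922, 6025 and 6060 TPM in control replicates 1, 2 and 3 and 5961, 6490 and 6509 TPM in ArA replicates 1, 2 and 3, or 6002 ± 72.2 and 6320 ± 311 TPM (SD, n = 3 each). ArA replicates 2 and 3 lay above all controls, and ArA replicate 1 lay among them. Rescaled to 1000000 TPM after removing the mitochondrially encoded transcripts, the sums were 8830, 8857 and 8866 in the control libraries and 8783, 9012 and 8907 in the ArA libraries. On that scale the means were 8851 ± 18.9 and 8901 ± 115 (SD, n = 3 each), a ratio of 1.01, and the groups overlapped. The 40 genes together made up 0.592 to 0.606% of all TPM in the control libraries and 0.596 to 0.651% in the ArA libraries.

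**Figure D3:**
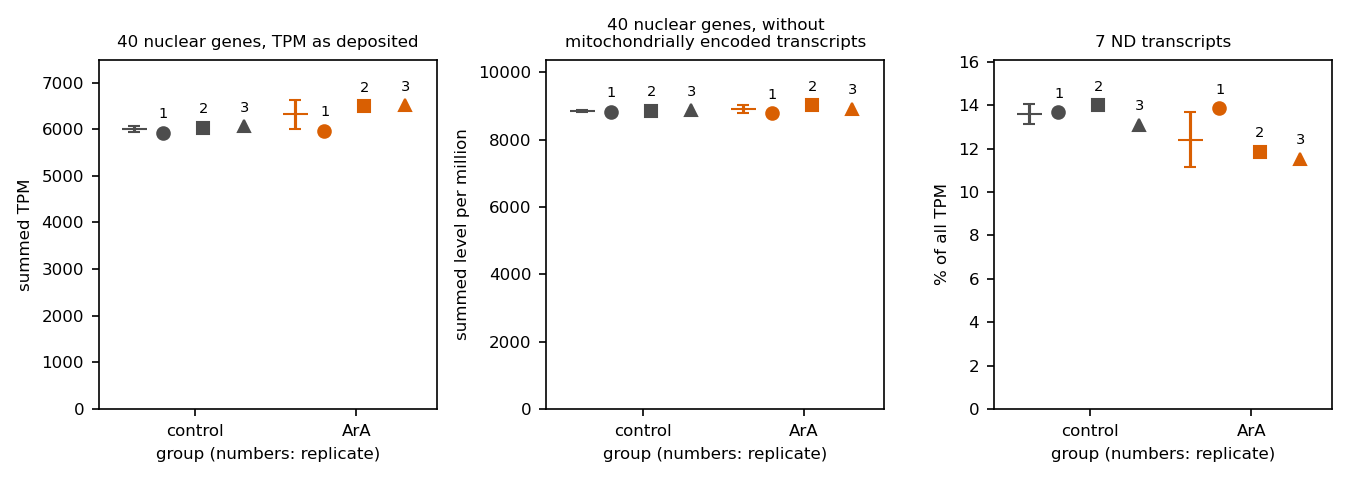
The panels give the summed TPM of the 40 nuclear genes as deposited, the same sum rescaled to 1000000 TPM after removing mitochondrially encoded transcripts, and the percent of all TPM held by the 7 ND transcripts, with 1 point per library (shape and number: replicate) and the group mean ± SD to the left of each group. In the middle panel the 6 libraries lie between 8783 and 9012; in the right panel ArA 1 (13.9%) lies among the controls and ArA 2 and 3 (11.9 and 11.5%) below them.

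The 6 core subunits carry the redox centres or line the ubiquinone site, and their log2 fold changes lay between -0.01 and 0.13. NDUFV1, which binds NADH and the flavin, had control levels of 72.9, 82.5 and 84.17 TPM and ArA levels of 83.01, 75.91 and 79.25 TPM. NDUFV2, which holds an iron-sulfur cluster next to the flavin, read 105.02, 105.43 and 115.97 TPM without ArA and 98.47, 131.04 and 129.37 TPM with it. The ArA values of NDUFV1 lay inside the control range, and those of NDUFV2 lay on both sides of it, lowest in ArA replicate 1.

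NDUFS1, the largest subunit, carries several iron-sulfur clusters of the chain. Its levels were 47.79, 43.39 and 49.2 TPM among controls and 45.0, 50.13 and 51.39 TPM under ArA. NDUFS3, a core subunit of the part that leads to ubiquinone, stood at 115.92, 126.07 and 115.25 TPM among controls against 117.24, 129.76 and 129.74 TPM under ArA. For both, ArA replicates 2 and 3 were above every control and ArA replicate 1 was not. NDUFS7, which holds the last iron-sulfur cluster before ubiquinone, had control levels of 53.64, 61.01 and 56.35 TPM and ArA levels of 69.33, 56.86 and 58.43 TPM. NDUFS8, which carries a pair of iron-sulfur clusters, read 92.19, 104.15 and 93.88 TPM without ArA and 106.43, 99.93 and 94.16 TPM with it. In these 2 GC-rich genes the order was turned round, with ArA replicate 1 the highest library. The widest 95% interval among the core subunits, for NDUFV2, ran from -0.17 to 0.42 on the log2 scale.

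All 9 accessory subunits of the matrix arm had positive log2 fold changes, from 0.02 to 0.23 with a median of 0.07. Over all tested genes 68.9% were positive and the median was 0.06. The excess of positive signs over the 40 genes depended on scaling, as given above. NDUFV3, which sits beside the NADH site, had the most positive value and the smallest p of the 40 genes, with 11.62, 15.12 and 13.54 TPM among controls and 14.35, 16.84 and 16.46 TPM under ArA. Only ArA replicate 1 was below the highest control. The means were 13.4 ± 1.75 and 15.9 ± 1.34 TPM (SD, n = 3 each), a log2 difference of 0.23 with an SE of 0.13 (limma adjusted p = 0.999; 95% interval -0.08 to 0.54). NDUFV3 (ENSG00000160194) is protein-coding and lies at chr21:42879644-42913304, forward strand (hg38).

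NDUFS4, an accessory subunit known for its mutations in Leigh syndrome, stood at 56.37, 28.04 and 49.58 TPM among controls against 37.78, 53.2 and 60.37 TPM under ArA. Its lowest values were in control replicate 2 and ArA replicate 1, as for NDUFA5, and the ratio of its highest to its lowest library was 2.15, against 2.37 for NDUFA5 and a median of 1.29 over the 40 genes. Its log2 fold change was 0.20 (SE 0.28), and -0.09 without control replicate 2. NDUFA2, a small subunit with a thioredoxin-like fold, varied least in this group, with a ratio of 1.09 and means of 138.8 ± 6.95 and 140.8 ± 2.58 TPM (SD, n = 3 each). NDUFA12, which takes the place of the assembly factor NDUFAF2 late in assembly, was the most abundant of the group at 225 ± 8.46 and 238 ± 36.1 TPM. NDUFA9, NDUFA6 and NDUFS6 (an enzyme-like fold, an LYR-motif protein and a zinc-binding protein) had log2 fold changes of 0.05, 0.03 and 0.02.

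NDUFA7 shares 456 exonic bases with a read-through gene on the same strand, AC010323.1, and reads can be assigned to either. The level of NDUFA7 was 45.71, 39.0 and 49.46 TPM among controls and 54.23, 39.38 and 52.79 TPM under ArA, while AC010323.1 was listed at 7.49, 11.5 and 3.71 TPM and at 0, 10.52 and 0 TPM. Where 1 was low the other was high, and their sum averaged 52.3 ± 1.55 TPM among controls against 52.3 ± 2.21 TPM under ArA (SD, n = 3 each). The log2 fold change of 0.12 for NDUFA7 alone is therefore uncertain. In all, 23 of the 40 genes share exonic bases with another annotated gene, and whether strand was used in counting is not given. NDUFC2, a membrane arm subunit, shares 431 bases with NDUFC2-KCTD14, which had 5.39 to 10.86 TPM beside 370 to 408 TPM for NDUFC2.

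The 20 accessory subunits of the membrane arm held the most abundant transcripts of the 40, with a median level of 135 TPM against 89.0 TPM for the core and 73.2 TPM for the matrix arm group. Of the 20, 18 had positive log2 fold changes, with a median of 0.08 and a range of -0.04 to 0.19. NDUFA13, also known as GRIM-19, had control levels of 550.88, 630.65 and 531.14 TPM and ArA levels of 657.16, 620.61 and 587.38 TPM. NDUFB8, often used as an antibody marker of assembled complex I, read 524.05, 571.91 and 505.38 TPM without ArA and 551.74, 581.49 and 576.87 TPM with it. For these 2 genes, control replicate 2 alone reached into the ArA range.

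NDUFB9 belongs to the LYR-motif proteins, which dock the acyl carrier protein to the complex. It stood at 138.15, 138.93 and 129.58 TPM among controls against 152.79, 147.96 and 144.48 TPM under ArA. All 3 ArA libraries were above all 3 controls. The means were 135.6 ± 5.19 and 148 ± 4.17 TPM (SD, n = 3 each), a 1.09-fold difference. On the log2 scale the difference was 0.13 with an SE of 0.07 (limma adjusted p = 0.999; 95% interval -0.04 to 0.30), and p was 0.1 in an exact permutation test (2-sided), the smallest value that 3 against 3 libraries allow. The separation was lost under median-of-ratios scaling, quantile normalization, rescaling without mitochondrially encoded genes and GC correction.

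NDUFB11, a single-span membrane subunit whose gene is X-linked, had control levels of 65.28, 82.52 and 73.33 TPM and ArA levels of 87.13, 77.52 and 85.7 TPM. Control replicate 2 was above ArA replicate 2. Its log2 difference was 0.18 with an SE of 0.11 (limma adjusted p = 0.999; 95% interval -0.08 to 0.44). NDUFB3 read 108.32, 70.89 and 108.67 TPM without ArA and 92.06, 111.88 and 121.08 TPM with it, a log2 fold change of 0.19 that was -0.01 without control replicate 2. NDUFB10, a subunit with twin cysteine motifs, was the steadiest of the 40, with a ratio of 1.04 between its highest and lowest library and means of 172 ± 3.31 and 172 ± 0.468 TPM (SD, n = 3 each).

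The 2 membrane arm genes with negative log2 fold changes were NDUFC1 (-0.04) and NDUFB1 (-0.04). NDUFC1 stood at 43.59, 41.02 and 49.8 TPM among controls against 38.9, 43.47 and 47.97 TPM under ArA. NDUFB1 had control levels of 327.73, 323.21 and 324.34 TPM and ArA levels of 259.01, 347.51 and 352.67 TPM. For NDUFB1 the controls lay within a narrow band, ArA replicate 1 was below it and ArA replicates 2 and 3 were above it. Without ArA replicate 1 the log2 fold change of NDUFB1 was 0.11 and that of NDUFC1 0.03. The remaining 11 membrane arm genes (NDUFA1, NDUFA3, NDUFA8, NDUFA10, NDUFA11, NDUFB2, NDUFB4, NDUFB5, NDUFB6, NDUFB7 and NDUFS5) had log2 fold changes between 0.01 (NDUFB5) and 0.12 (NDUFB2), and their groups overlapped in each case. NDUFA1, a small subunit at the bend of the complex, was the most abundant of these, from 442.51 TPM in ArA replicate 1 to 596.92 TPM in ArA replicate 3. NDUFAB1, the mitochondrial acyl carrier protein, which is also needed for fatty acid synthesis in mitochondria, read 98.05, 93.65 and 104.01 TPM without ArA and 93.21, 111.75 and 114.52 TPM with it, with the same low ArA replicate 1.

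**Figure D4:**
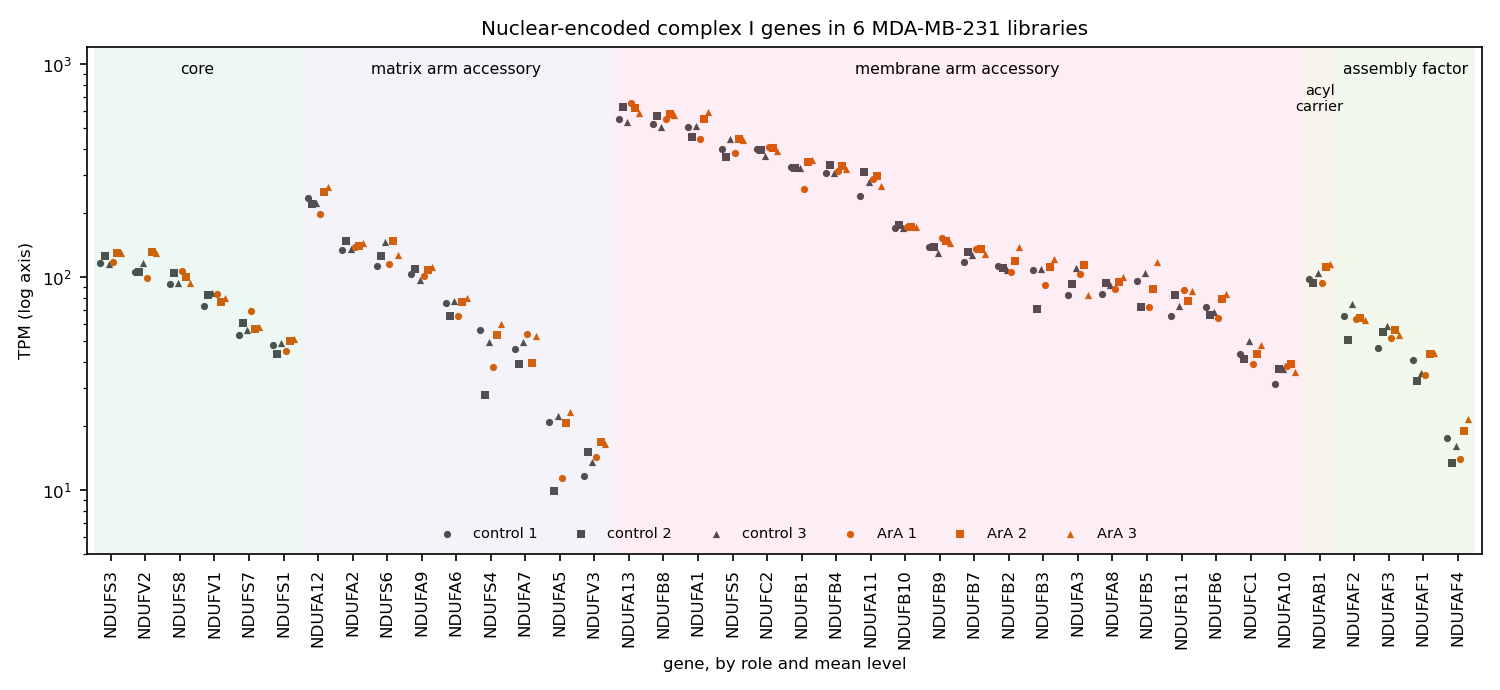
Points are TPM (log axis) of each of the 40 genes in each of the 6 libraries, grouped by role and ordered by mean level; grey points are control and orange points ArA libraries, and shapes mark replicates. Control and ArA points overlap for every gene but NDUFB9, and NDUFA5 and NDUFS4 have low points in control 2 and ArA 1.

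The 4 assembly factors among the members had levels of 16.9 to 63.6 TPM and log2 fold changes of 0.01 to 0.18. NDUFAF1, part of the complex that builds the inner membrane arm, stood at 40.97, 32.35 and 35.43 TPM among controls against 34.66, 43.38 and 44.14 TPM under ArA. NDUFAF2 had control levels of 65.79, 50.68 and 74.91 TPM and ArA levels of 63.48, 63.95 and 62.82 TPM. The ArA values of NDUFAF2 lay close together while the controls spread widely around them, at 63.8 ± 12.2 TPM against 63.4 ± 0.568 TPM (SD, n = 3 each). NDUFAF3 and NDUFAF4 bind each other and act together on the part of the matrix arm that leads to ubiquinone. NDUFAF3 read 46.31, 55.18 and 58.69 TPM without ArA and 51.88, 56.34 and 53.49 TPM with it. NDUFAF4 stood at 17.59, 13.46 and 16.03 TPM among controls against 13.95, 18.95 and 21.53 TPM under ArA. These partners differ in coding GC content (62.2 and 40.9%), and their lowest libraries differed too: control replicate 1 for NDUFAF3 and control replicate 2 for NDUFAF4. In ArA replicate 1, NDUFAF3 did not follow the GC pattern, with a deviation of -0.04 from its mean on the log2(TPM + 1) scale.

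Of 15 other complex I assembly genes, 0 passed the test and 10 (66.7%) had positive log2 fold changes, against 68.9% of all tested genes. The median of the 15 was 0.08. ACAD9 and DMAC1 had all ArA values above all controls, as 6.84% of all tested genes did. ACAD9, an acyl-CoA dehydrogenase relative that works with NDUFAF1, had control levels of 16.34, 16.61 and 17.85 TPM and ArA levels of 18.01, 18.24 and 20.96 TPM. DMAC1, a factor of the far end of the membrane arm, read 5.19, 5.42 and 6.13 TPM without ArA and 6.28, 9.22 and 6.68 TPM with it. Their unadjusted limma p-values were 0.175 and 0.0789. ECSIT, a partner of NDUFAF1 and ACAD9, stood at 16.07, 21.85 and 19.22 TPM among controls against 32.49, 17.76 and 19.85 TPM under ArA, with ArA replicate 1 alone high.

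The mitochondrially encoded partners went the other way. All 7 ND transcripts had negative log2 fold changes, with a median of -0.18, where the 40 nuclear genes had 0.07. Over all tested genes 68.9% were positive. Quantile normalization left 3 of 7 negative and a median of 0.0, since it gives the most abundant transcripts of each library equal values. The ND transcripts have no value where mitochondrially encoded genes are removed. The lower level was not particular to them: the ratio of ArA to control means was 0.914 for their summed TPM and 0.902 for all mitochondrially encoded transcripts. With the latter removed, the ratio for the summed 40 nuclear genes was 1.01. MT-ND6, MT-ND5 and MT-ND1 had all 3 ArA values below all 3 controls, which 1.21% of tested genes did. MT-ND6, the only ND gene read from the other strand of mitochondrial DNA, had control levels of 4776, 4489 and 4907 TPM and ArA levels of 3885, 3878 and 3493 TPM. Since it is not given whether strand was used in counting, the MT-ND6 level may include reads from the opposite strand. MT-ND5 read 3670, 3368 and 3673 TPM without ArA and 3038, 2937 and 2819 TPM with it. The log2 fold changes were -0.33 (SE 0.08) and -0.28 (SE 0.07), with unadjusted limma p-values of 0.00371 and 0.00596 and adjusted p = 0.999 for both. MT-ND1, whose product helps to form the ubiquinone site, stood at 5504, 6042 and 5766 TPM among controls against 5351, 4710 and 4470 TPM under ArA (log2 fold change -0.26, SE 0.09, limma unadjusted p = 0.0249, adjusted p = 0.999). Without both control replicate 2 and ArA replicate 1 the median of the 7 was -0.28.

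The other 4 ND transcripts overlapped between groups. MT-ND2 had control levels of 12935, 12408 and 13491 TPM and ArA levels of 13032, 11146 and 11224 TPM. MT-ND4 read 10604, 9162 and 10695 TPM without ArA and 9496, 8991 and 8854 TPM with it. MT-ND4L, which shares 7 bases and a transcript with MT-ND4, stood at 35405, 29853 and 34345 TPM among controls against 30344, 28182 and 29188 TPM under ArA. For MT-ND2, MT-ND4 and MT-ND4L, at least 1 ArA library lay inside the control range. MT-ND3 had control levels of 63860, 74563 and 58016 TPM and ArA levels of 73384, 58814 and 55266 TPM. Its high values were in control replicate 2 and ArA replicate 1, and its log2 fold change was -0.07 (SE 0.14). Its GC content was 40.2%, the lowest of the ND transcripts, although GC-rich genes had the higher levels in both of these libraries. MT-ND3 and MT-ND4L are only 346 and 297 bases long, which makes TPM sensitive to how length is corrected.

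Together the ND transcripts took 13.1 to 14.0% of all TPM in the controls and 13.9, 11.9 and 11.5% in ArA replicates 1, 2 and 3. Summed ND levels were 23.1, 23.2 and 21.6 times the summed levels of the 40 nuclear genes in the control libraries and 23.2, 18.3 and 17.7 times in the ArA libraries. ArA replicate 1 therefore resembled the controls in this ratio. The means were 22.6 ± 0.902 and 19.7 ± 3.04 (SD, n = 3 each). MT-ND3 and MT-ND4L, with means of 63984 and 31220 TPM over all libraries, held most of the ND sum. For MT-ND1, MT-ND5 and MT-ND6, ArA replicate 1 lay below every control. For MT-ND2, MT-ND3, MT-ND4 and MT-ND4L it lay within the control range. Nuclear pseudogenes named after ND genes held only 113 to 159 TPM per library.

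Nuclear respiratory factor 1 (NRF1), GABPA, YY1 and ESRRA are transcription factors that bind promoters of respiratory genes, and PPARGC1A, PPARGC1B and PPRC1 are their coactivators. Of these 7 and TFAM, the activator of mitochondrial DNA transcription, 0 passed the test. Of these 8, 3 (37.5%) had positive log2 fold changes, against 68.9% of all tested genes, and 5 had negative ones. Positive were ESRRA (0.14), YY1 (0.08) and PPRC1 (0.02). Negative were NRF1 (-0.26), PPARGC1A (-0.16), GABPA (-0.07), PPARGC1B (-0.04) and TFAM (-0.02). Only NRF1 had all ArA values below all controls, which 1.21% of tested genes did. It stood at 6.08, 6.01 and 6.45 TPM among controls and 5.37, 5.11 and 4.53 TPM under ArA (SE 0.12, limma unadjusted p = 0.0721, adjusted p = 0.999). Whether the level of NRF1 bears on the complex I genes was not tested. TFAM read 25.7, 14.68 and 24.62 TPM without ArA and 14.55, 22.52 and 27.17 TPM with it, low in control replicate 2 and ArA replicate 1. PPARGC1A was near the lower limit of testing, at 0.98 to 1.42 TPM.

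RefSeq promoter windows (GRCh38.p14, 250 bases before to 50 after the start) were found for 36 of the 40 genes, and the first one listed for each gene was searched on both strands. The 6 letters TGCGCA, the core of the NRF1 motif, were in 11 of the 36 windows (30.6%), against 14.1% of 9783 windows of tested genes and 8.4% of all 27305 windows. AAGATGG (YY1) was in 19.4% of the 36, against 7.8 and 6.1%, and AAGGTCA (ERR) in 11.1%, against 2.4 and 4.0%. CCGGAAG (ETS) was in 16.7%, against 20.4 and 10.7%, and GGGCGG (SP1) in 61.1%, against 71.1 and 44.6%. These are counts of letters, not of bound sites. The start of the window lay more than 1000 bases from the 5′ end of the GENCODE gene for 5 of the 36 (NDUFA5, NDUFB2, NDUFS3, NDUFV1 and NDUFV3). That of NDUFA5, which holds 1 of the 4 ERR matches, was 43396 bases before the gene. In the other 31 windows the shares were 35.5% (NRF1 core), 22.6% (YY1), 9.7% (ERR), 16.1% (ETS) and 61.3% (SP1). The RefSeq start of NDUFB11 also lies inside the GENCODE gene, within 1000 bases of its 5′ end. The 120 bases before the start are shown, 5′ to 3′ in the gene's sense, for the 3 genes in which that stretch holds both the NRF1 core and the SP1 letters, with each match (either strand) in capitals: NDUFA8 (reverse strand, chr9:122159780-122159899), NDUFB11 (reverse strand, chrX:47144703-47144822) and NDUFS6 (forward strand, chr5:1801287-1801406).
NDUFA8: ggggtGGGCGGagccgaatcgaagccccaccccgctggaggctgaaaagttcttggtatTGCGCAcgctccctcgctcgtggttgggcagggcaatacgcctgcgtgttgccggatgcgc
NDUFB11: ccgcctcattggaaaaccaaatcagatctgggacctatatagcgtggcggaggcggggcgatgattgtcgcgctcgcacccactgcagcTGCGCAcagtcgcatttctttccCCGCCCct
NDUFS6: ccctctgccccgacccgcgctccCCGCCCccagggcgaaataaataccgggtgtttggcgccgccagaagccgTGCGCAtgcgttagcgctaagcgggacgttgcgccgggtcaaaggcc
NDUFA8 stood at 83.49, 93.77 and 91.91 TPM among controls against 88.03, 94.94 and 99.5 TPM under ArA. NDUFS6 had control levels of 113.09, 126.06 and 145.34 TPM and ArA levels of 114.63, 148 and 126.16 TPM. As in NDUFB11, the groups overlapped in both.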

How the data were processed

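The authors deposited 1 table of gene levels in TPM, with a column per library; each column summed to 1000000. Per the submitters' processing notes, HISAT2, StringTie, RSEM and hg38 were used. The notes give no versions or roles, and annotation and strand handling were not given in the sources used here. Lines naming no gene (50) were left out, leaving 63241 genes.

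The 12999 genes averaging 1 TPM or more were modelled on log2(TPM + 1) by group in limma 3.58.1 (R 4.3.3, eBayes with trend); on this scale changes of low genes are understated. P-values are 2-sided, with Benjamini-Hochberg adjustment across these genes. The model was tested on simulated data with independent noise for each gene, which lacked the GC pattern that genes share in these libraries. GC content, lengths and exon overlaps came from GENCODE v29 (hg38), using the longest transcript, or the principal coding transcript for coding sequences. The members, lists and tests were chosen with earlier results of these data known. Levels per library were named for core subunits, assembly factors, the 3 smallest p, the 3 largest log2 fold changes in each direction, the 2 highest and 2 lowest means, and the ND transcripts; others were chosen after seeing values. Of the markers listed, 1 is not reported here. Alternatives were 3 scalings, pseudocounts of 0.1 and 5, no filter, a filter at 5 TPM, the replicate block, robust eBayes, GC correction (a spline with 5 degrees of freedom per library), and libraries left out.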

Additional observations from a re-analysis of the deposited data

How the results depend on the processing

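In each of 18 alternatives 0 of the 40 genes had an adjusted p under 0.05 in limma. In the 14 alternatives that can move a fold change, 320 of 357 values of named genes kept their sign, 33 turned and 4 were 0 (MT-ND2, MT-ND3, MT-ND4 and MT-ND4L with quantile normalization). Under the 3 other scalings 0 genes had separate groups with ArA on the higher side. With quantile normalization 18 genes were positive with a median of -0.00216, 3 ND transcripts were negative and the ND median was 0.0. With TPM rescaled without mitochondrially encoded genes 24 were positive and the median was 0.00789. With median-of-ratios scaling 25 were positive, and the median was 0.01. With GC correction, alone or with the replicate block, 27 were positive with a median of 0.02, 1 gene was lower in all ArA libraries (NDUFB10) and NDUFB3 was the 1 that was higher, where 53.3% of all tested genes were positive, 4.01% lower and 4.9% higher in this sense. Without both control replicate 2 and ArA replicate 1 (chosen after seeing the data), 7 genes had an unadjusted p under 0.05, 25 were higher and 1 lower in all ArA libraries, the median was 0.10 and the ND median -0.28. Over all tested genes these shares were 9.65, 32.8 and 11.6%. Leaving out 1 library each gave 0 to 4 genes with an unadjusted p under 0.05, 1 to 16 higher and 0 to 1 lower genes, 31 to 39 positive genes, medians of 0.0495 to 0.109 and ND medians of -0.225 to -0.137. Over all tested genes the shares were 1.65 to 5.54% with an unadjusted p under 0.05, 9.44 to 21.3% higher, 1.95 to 10.2% lower and 51.8 to 80.4% positive.

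The log2 fold changes that turned were NDUFS8 (-0.00887), NDUFAF2 (-0.0489) and NDUFAF3 (-0.0390) with median-of-ratios scaling; NDUFS1 (-0.00634), NDUFS3 (-0.00115), NDUFS8 (-0.0169), NDUFAF2 (-0.0626) and NDUFAF3 (-0.0499) with quantile normalization; NDUFS1 (-0.00375), NDUFS8 (-0.0145), NDUFAF2 (-0.0548) and NDUFAF3 (-0.0447) without mitochondrially encoded genes. With GC correction, with or without the replicate block, NDUFS8 (-0.0122), NDUFAF2 (-0.0326) and NDUFAF3 (-0.0406) turned. Without both libraries NDUFAF2 was -0.145 and NDUFB1 0.10. With 1 library left out, ranges that crossed 0 were -0.0700 to 0.0324 (NDUFV1), -0.145 to 0.133 (NDUFAF2), -0.0777 to 0.0900 (NDUFAF3), -0.0924 to 0.399 (NDUFS4), -0.0112 to 0.303 (NDUFB3), -0.116 to 0.0331 (NDUFC1), -0.115 to 0.107 (NDUFB1) and -0.192 to 0.0270 (MT-ND3). The cause was not tested.

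The labels do not say whether replicate numbers pair the libraries. Deviations of same-numbered libraries correlated at -0.16, -0.28 and 0.11. Those of control replicate 2 and ArA replicate 1, which share the GC pattern, correlated at 0.29, the highest of all control and ArA pairs. The replicate block gave 0 calls over all genes, against 3 without it, but it leaves fewer degrees of freedom. Neither result can decide whether the libraries were paired. Depth is unknown and sets no stated limit.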
